A study of Anethum foeniculum with 6 samples.

Results

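In fennel (Foeniculum vulgare Mill.) leaves, 33 of 27955 genes were at least 5-fold lower in every library of plants grown at 800 ppm CO2 than in any library of plants grown at 400 ppm. A gene here is a Trinity gene, a group of assembled contigs that the assembler joined. Its level is the sum of the TPM (transcript counts per length, scaled to the same total in every library) of its contigs. The members were selected on these levels. The lowest of the 3 libraries at 400 ppm had to reach 5 TPM, and it had to be at least 5 times the highest of the 3 libraries at 800 ppm. The level at 800 and 400 ppm is therefore given as a description, with no test. The study sequenced leaf RNA as 3 libraries at 800 ppm and 3 libraries at 400 ppm, from wild-type plants grown in hydroponics for 5 weeks. Each CO2 concentration was supplied to its own greenhouse, so CO2 and greenhouse cannot be told apart, and the sources used here do not say how many plants a library holds. The deposited tables give genes as assembly numbers with no names attached, so leaf markers and gene functions were not analysed here. The members are numbered 1 to 33 by their mean level at 400 ppm, from the highest down.

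Carbon dioxide is the substrate that Rubisco fixes in the Calvin cycle. At elevated CO2 the enzyme reacts less often with oxygen, so photorespiration falls, and leaves often narrow their stomata. In many species, carbohydrate builds up in such leaves and the transcripts of sugar-responsive genes shift with it. In RNA from whole leaves, fewer cells that express a gene and less transcript per cell cannot be told apart.

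The members were strongly lower at 800 ppm, but all except 1 were still detected there. Of the 33 members, 32 had reads in every 800 ppm library, and 1 had 0 TPM in each of the 3. Thus "switched off", taken as 0 TPM in every 800 ppm library, fits a single member. Reads at 800 ppm were few in others, with 5, 5 and 1 in member 32. In 11 members, the one at 0 included, they were fewer than 50 over the 3 libraries. The mean level at 800 ppm was between 3.08% and 13.5% of the mean at 400 ppm in the 32 detected members, and the median over all 33 was 8.42%. In 22 members, the one at 0 included, the means were at least 10-fold apart, and in 8 of them at least 20-fold. The highest 800 ppm library was under 5 TPM in 26 members and under 1 TPM in 4.

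**Figure D1:**
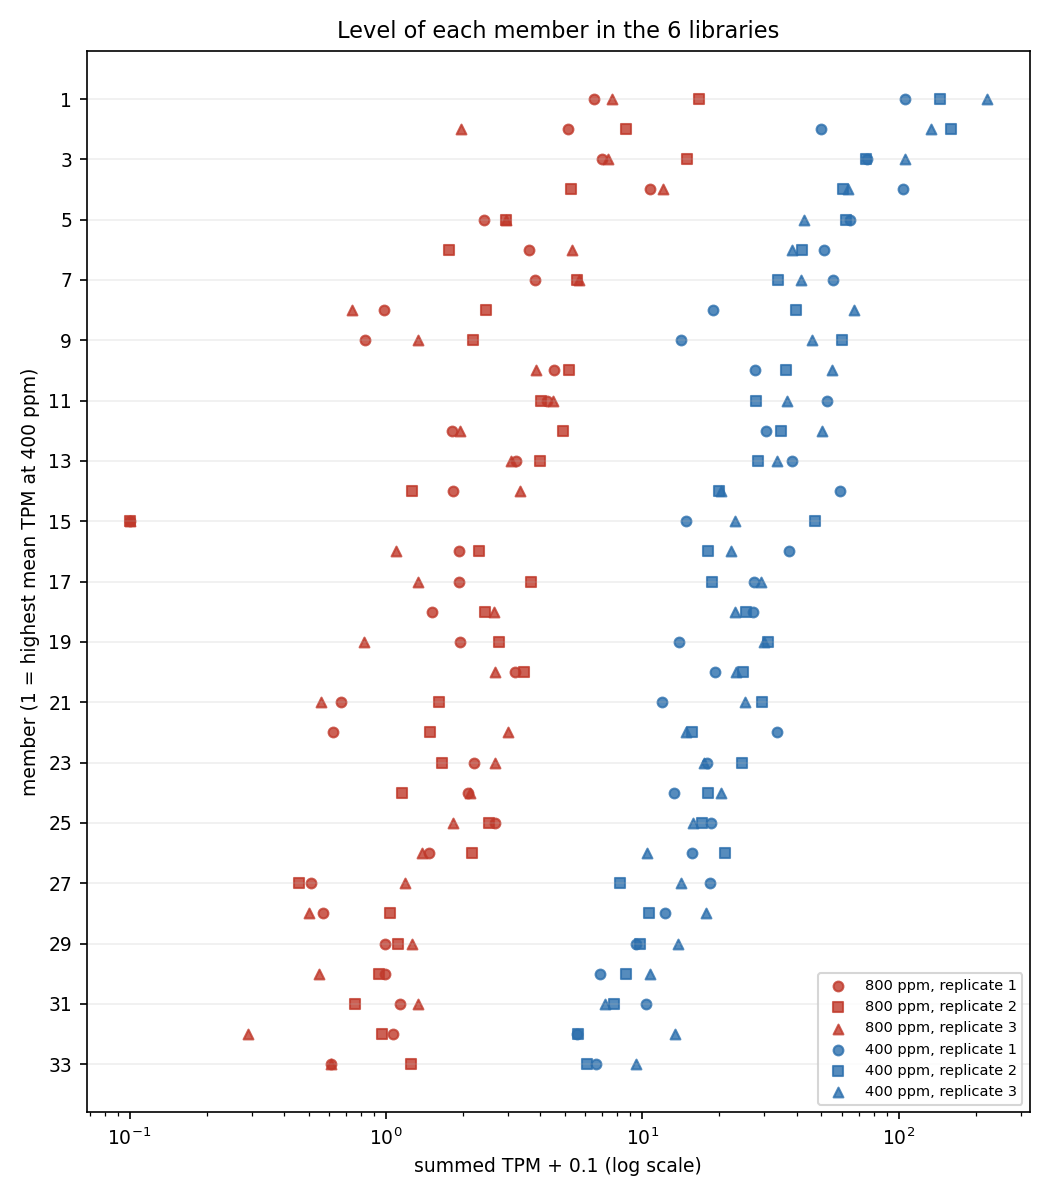
Summed TPM + 0.1 (log scale) of each member in the 3 libraries at 800 ppm (red) and the 3 at 400 ppm (blue), with 1 row per member and a marker shape per replicate. The groups are apart in every row because the rule asked for it, and the points of member 15 at 800 ppm lie at 0 TPM.

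Together the members were a small part of the leaf transcriptome. They held 0.00909% ± 0.00155 of the summed TPM at 800 ppm and 0.118% ± 0.0115 at 400 ppm (SD, n = 3). The median member stood at 1.83, 2.21 and 1.85 TPM in replicates 1, 2 and 3 of the 800 ppm group, against 19.1, 25.2 and 23.2 TPM in those of the 400 ppm group. No library of either group stood apart in these medians. At 400 ppm the members were ordinary in abundance, with a median mean level of 25.0 TPM, against 25.4 TPM for the 14245 other genes that reached 5 TPM in every 400 ppm library. The mean at 400 ppm was at least 50 TPM in 5 members, from 20 to 50 TPM in 17 and under 20 TPM in 11.

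The most abundant member, TRINITY_DN8740_c0_g1, is a single contig of 1213 bases. It had 6.41, 16.6 and 7.51 TPM at 800 ppm, against 106, 145 and 221 TPM at 400 ppm. These levels rested on 78, 228 and 90 reads at 800 ppm and on 1000, 2091 and 2320 reads at 400 ppm. The gene ranked 11052 of all 27955 genes by its mean level at 800 ppm and 907 at 400 ppm. Its lowest 400 ppm library was 6.40 times its highest 800 ppm library, and its means were 10.2 ± 5.599 TPM at 800 ppm and 158 ± 58.4 TPM at 400 ppm (SD, n = 3).

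Members 2 to 5 were the next in abundance. Member 2 had 5.05, 8.57 and 1.86 TPM at 800 ppm, against 49.9, 160 and 134 TPM at 400 ppm, where replicate 1 was well under the other libraries. Member 3 had 6.84, 14.9 and 7.26 TPM at 800 ppm, against 75.3, 74.7 and 106 TPM at 400 ppm. Member 4 differed in its order of libraries, with 10.7, 5.16 and 11.96 TPM at 800 ppm and 104, 60.8 and 63.7 TPM at 400 ppm, so that replicate 1 was its highest library at 400 ppm. Member 5 was tight at 800 ppm and less so at 400 ppm. It had 2.32, 2.84 and 2.84 TPM at 800 ppm, against 64.9, 62.5 and 42.65 TPM at 400 ppm, and its lowest 400 ppm library was 15.02 times its highest 800 ppm library, the widest gap among members with reads at 800 ppm.

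The deepest losses among the detected members were not in the most abundant ones. Member 8 kept 3.08% of its mean level, with 0.88, 2.35 and 0.64 TPM at 800 ppm and 18.8, 39.9 and 67.1 TPM at 400 ppm. Member 9 kept 3.38%, with 0.73, 2.08 and 1.23 TPM at 800 ppm and 14.0, 59.9 and 45.7 TPM at 400 ppm. Member 21 kept 3.83%, with 0.57, 1.51 and 0.46 TPM at 800 ppm and 11.9, 29.3 and 25.1 TPM at 400 ppm. These 3 shared an order of libraries, with replicate 2 highest at 800 ppm and replicate 1 lowest at 400 ppm. The shallowest losses were those of members 20 and 25, which kept 13.5% and 13.2% of their mean levels at 400 ppm. Member 20, the longest of the set at 4151 bases, had 3.10, 3.36 and 2.56 TPM at 800 ppm, against 19.1, 24.7 and 23.2 TPM at 400 ppm.

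TRINITY_DN6826_c0_g1, member 15, was the only member at 0 TPM in all 3 libraries at 800 ppm. It had 14.8, 47.1 and 22.9 TPM at 400 ppm, from 24, 123 and 41 reads. Its 2 contigs are 402 and 376 bases long, so few reads make a high TPM. Taking 3 reads over the 3 libraries at 800 ppm as the limit that a count of 0 allows, the gene was at least 54.9-fold lower at 800 ppm. Leaving out 1 library moved this bound most without replicate 2 of the 400 ppm group, to 31.8-fold. Dropping replicate 1 at 800 ppm gave 36.3-fold, and dropping replicate 2 gave 35.3-fold. Floors cover counting error only. The longer contig had 1.64, 28.7 and 1.35 TPM at 400 ppm and the shorter 13.2, 18.4 and 21.5 TPM, so the replicate 2 excess lay mostly on the longer contig. Summed over both contigs, the reads of this gene were not whole numbers in every library, so some may have been shared with other genes. The level of the gene, the bound included, is therefore uncertain, as is the division between its contigs.

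**Figure D2:**
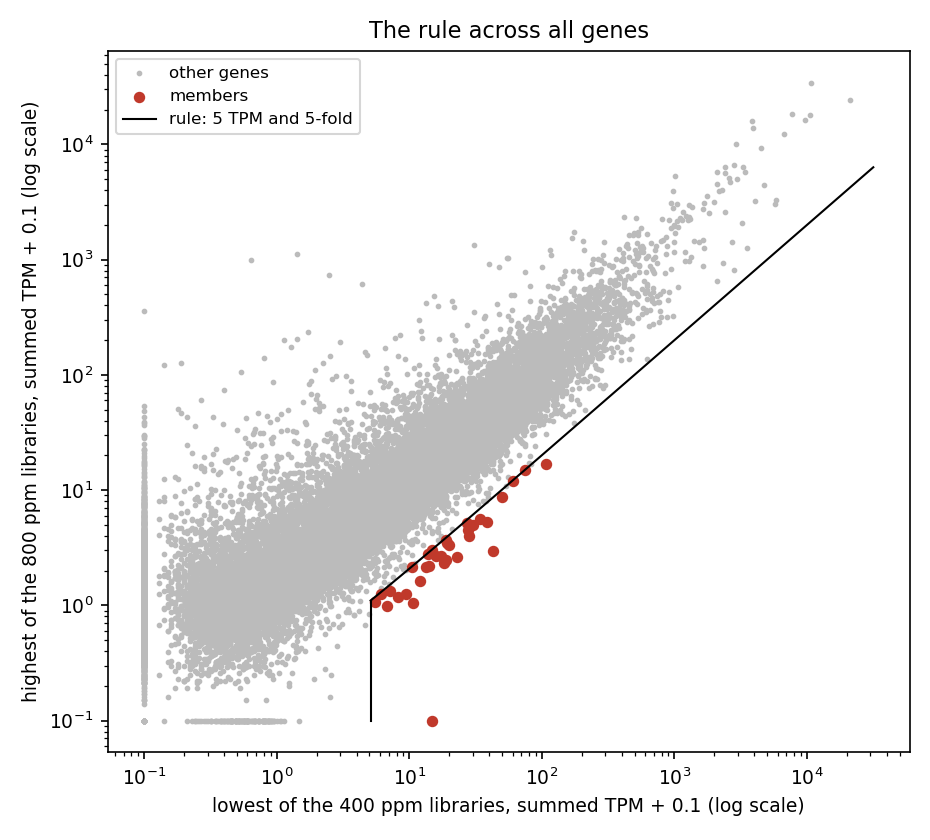
Highest 800 ppm library against lowest 400 ppm library for every gene, both as summed TPM + 0.1 on log scales, with members in red, other genes in grey and the rule as a black line. The 33 members lie along the lower edge of the cloud, most of them close to the line, and the member at 0 TPM at 800 ppm lies apart at the bottom.

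The set had no natural edge at 5-fold. The 3 members closest to the fold threshold had lowest 400 ppm levels 5.005, 5.011 and 5.09 times the highest 800 ppm level, and the 3 genes just outside reached 4.98, 4.92 and 4.92 times. At the threshold on level, the lowest 400 ppm libraries of the last 3 members were 5.45, 5.99 and 6.73 TPM, and the first 3 genes outside, which met the fold, had 4.86, 4.56 and 4.06 TPM. A gap over 10-fold was found in 3 members, member 15 included, and one under 6-fold in 12.

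The size of the set depended on how libraries were scaled. After TPM was divided by TMM factors (edgeR's correction for composition between libraries), 20 genes met the rule, and all 20 were members. With the groups exchanged, so that the lowest 800 ppm library had to be 5-fold above the highest 400 ppm library, 20 genes met the rule in deposited TPM and 41 after TMM. Thus the set was larger than its opposite by 33 to 20 in TPM and smaller by 20 to 41 after TMM. The median log2 difference of TPM + 1 between 800 and 400 ppm was -3.08 in members and -0.39 in the 14245 other genes above 5 TPM, which were also taken by their 400 ppm level.

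edgeR's quasi-likelihood test was fitted to the reads of all genes with TMM factors, and 2025 of 20328 genes tested (9.96%) were lower at 800 ppm at an FDR under 0.05. All 33 members passed the filter on low counts and all 33 were called lower. As the rule used the same contrast, nothing is read from that count. As a description, the fitted log2 fold changes of the 32 members with reads at 800 ppm ranged down to -4.65 (member 8) and up to -2.49 (member 20), and the median over all 33 was -3.21, where the median over all genes tested was -0.01. For TRINITY_DN8740_c0_g1, the fitted log2 fold change was -3.60. Over the whole table, the genes called lower fell to 693 when replicate 1 at 800 ppm was left out and to 1098 without replicate 3, and to 910 and 846 when replicates 2 and 3 at 400 ppm were left out. Without TMM, on library size alone, 5023 genes were lower and 1955 higher, against 2025 lower and 3013 higher with it, and the median log2 fold change over all genes tested was -0.28.

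How much the members varied among libraries of the same CO2 concentration was restricted by the rule only through the lowest 400 ppm and the highest 800 ppm library, since a low library at 400 ppm or a high one at 800 ppm kept a gene out. The spread is therefore a description. The coefficient of variation among the 400 ppm libraries had a median of 27.5% in members (range 8.06% to 67.9%) and 12.2% in the 14245 other genes above 5 TPM. The highest 400 ppm library was more than 2-fold above the lowest in 14 of 33 members (42.4%), against 7.34% of the other genes. The 20 genes of the exchanged rule had a median coefficient of variation of 61.6% at 400 ppm, on a median of 58 reads, and 70.0% of them were more than 2-fold apart. Members also had fewer reads, with a median of 761 over the 400 ppm libraries against 1415 in the other genes. The part of read depth in the spread was not tested. At 800 ppm the coefficient of variation had a median of 43.0% over the 32 members with reads, on a median of 66 reads over the 3 libraries. It was 14.0% in the other genes on a median of 1228 reads. In the genes of the exchanged rule it was 35.4% on a median of 1738.5 reads. Fewer than 50 reads over the 800 ppm libraries were found in 11 members.

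The 14 members with ranges over 2-fold at 400 ppm did not share a single order of libraries. In 4 members, numbers 2, 8, 9 and 15, the range was more than 3-fold, and all 4 were lowest in replicate 1. Member 9 had the widest range, 4.27-fold. Members 14 and 22 ran the other way and were both highest in replicate 1. Member 14 had 1.72, 1.16 and 3.24 TPM at 800 ppm, against 58.9, 19.9 and 20.2 TPM at 400 ppm, and member 22 had 0.52, 1.39 and 2.89 TPM at 800 ppm, against 33.6, 15.5 and 14.8 TPM at 400 ppm. These 2 genes belong to the same Trinity component, which is a set of contigs joined through shared sequence in the assembly. The steadiest members at 400 ppm were 25 and 18, with ranges of 1.17-fold and 1.18-fold.

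**Figure D3:**
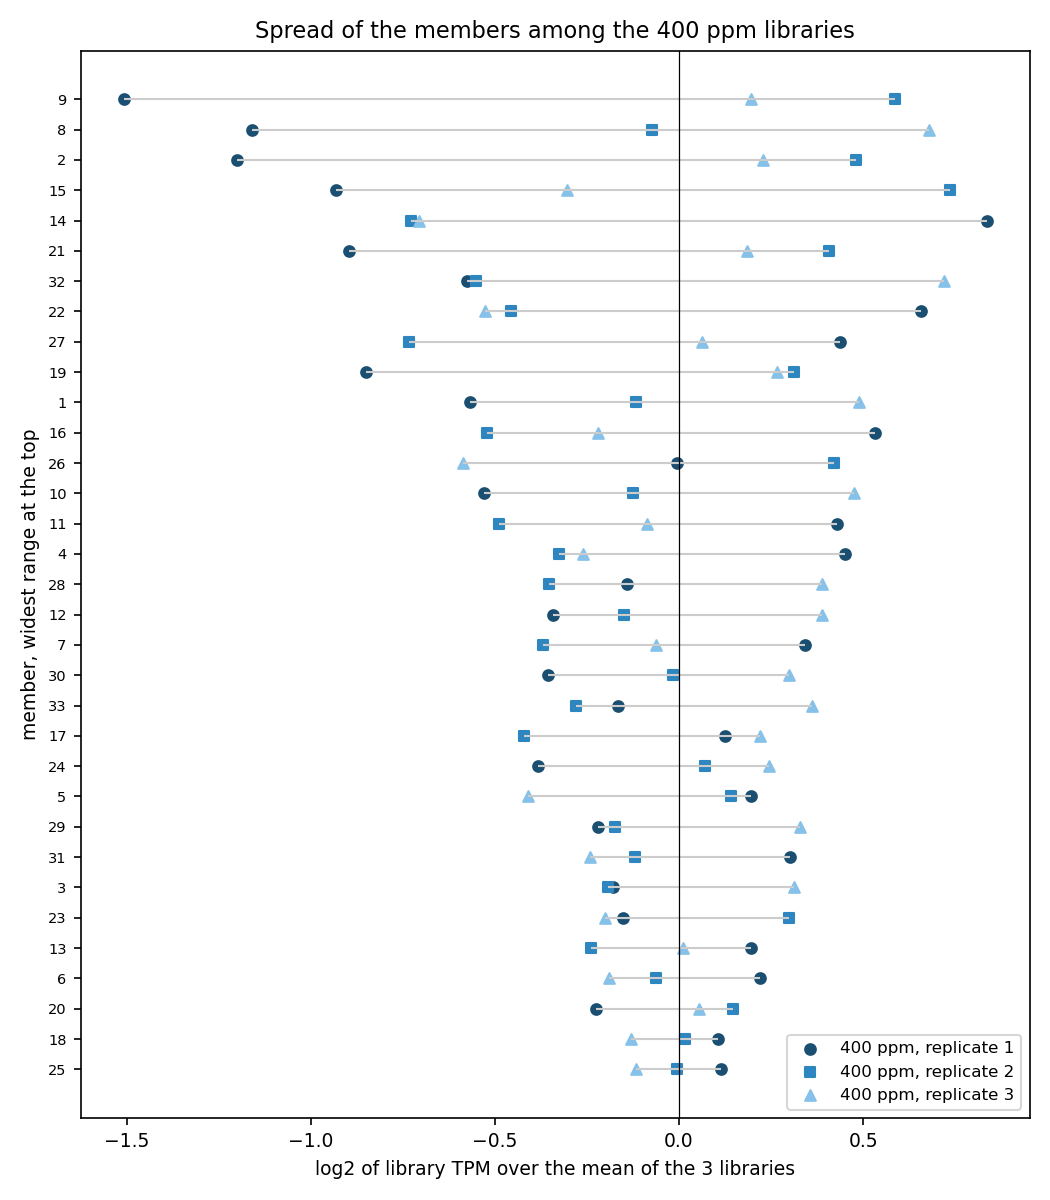
Log2 of each 400 ppm library over the mean of the 3 for every member, with the widest range at the top and a marker per replicate. Replicate 1 is the lowest library in members 9, 8, 2 and 15 at the top, and the highest in members 14 and 22.

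Over the whole set, replicate 1 was the lowest 400 ppm library in 14 members (42.4%), replicate 2 in 11 and replicate 3 in 8. Among the other genes above 5 TPM, replicate 1 was lowest in 25.4%. At 800 ppm, replicate 2 was the highest library in 17 members (51.5%), replicate 3 in 12 and replicate 1 in 3, where the shares in the other genes were 37.0% for replicate 2, 21.5% for replicate 3 and 41.5% for replicate 1. In the most common combination, 9 of the 14 members lowest in replicate 1 at 400 ppm were highest in replicate 2 at 800 ppm. With replicate 2 highest in 51.5% of all members, no link between the orders is read from this count. Its share in the other genes was not taken. These shares describe the 6 libraries, and the members of a library share its depth and its plants.

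Because each member had to clear all 6 libraries, single libraries decided how many genes entered. When the members were chosen without replicate 2 of the 800 ppm group, 95 genes met the rule on the remaining 5 libraries, and 33 of them (34.7%) also met it in the library left out. Without replicate 1 of the 400 ppm group, 76 genes met the rule and 33 (43.4%) held in that library. The share was 53.2% of 62 genes for replicate 2 and 84.6% of 39 genes for replicate 3 of the 400 ppm group, and 78.6% of 42 genes for replicate 1 and 68.8% of 48 genes for replicate 3 of the 800 ppm group. Among all genes above 5 TPM in the 400 ppm libraries used, between 0.476% and 1.24% met the same condition in the library left out. At a 2-fold difference in place of 5-fold, between 79.0% and 97.9% of the chosen genes held, against 5.95% to 11.3% of all genes above the floor. In each choice, the 33 that held at 5-fold are the members themselves, so the 5-fold shares only restate how many genes were chosen. The 2-fold shares also count these 33, which hold at 2-fold because they hold at 5-fold. For replicate 2 of the 400 ppm group, 49 of 62 genes held at 2-fold, the 33 members among them. Neither share is read as support for the set.

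The members had shorter contigs, and fewer of them, than the other genes above 5 TPM. The longest contig of a member had a median of 1203 bases (range 402 to 4151), against 1946 bases in the 14245 other genes above 5 TPM. It was under 1000 bases in 13 of 33 members (39.4%) and in 11.96% of the other genes, and over 1.5 kb in 24.2% of members and 68.6% of the other genes. A single contig made up 24 members (72.7%), against 52.2% of the other genes. The 20 genes of the exchanged rule had a median longest contig of 1727 bases, and 10 of the 20 had a single contig. Length was not used by the rule. TPM is divided by length but read counts are not, and members had fewer reads at 400 ppm (median 761 against 1415). Whether length bears on membership was not tested.

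**Figure D4:**
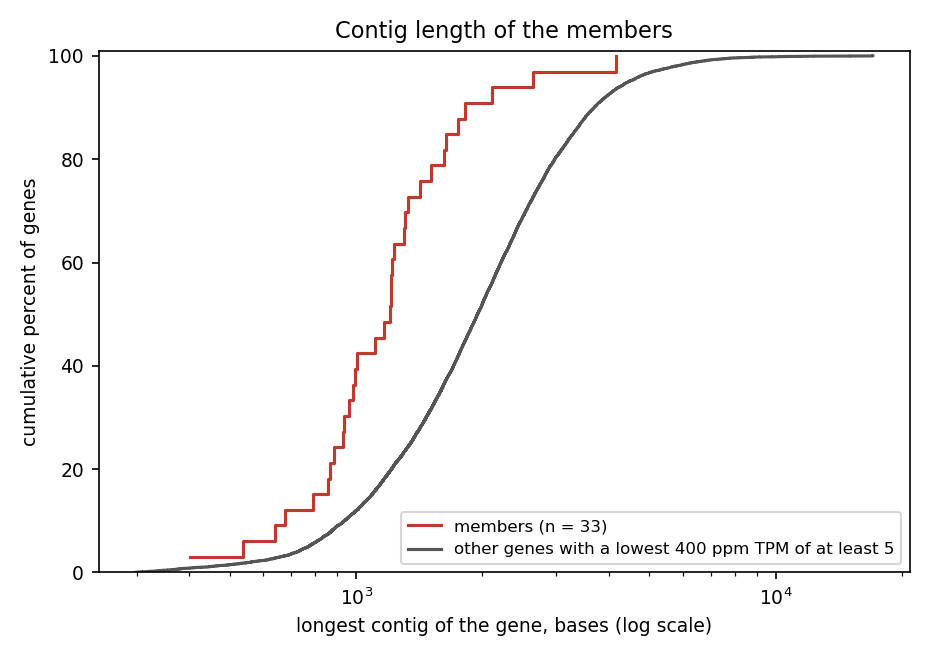
Cumulative percent of genes by the length of their longest contig (bases, log scale), for the 33 members in red and for the other genes with a lowest 400 ppm TPM of at least 5 in grey. The line of the members lies to the left, with medians of 1203 and 1946 bases.

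An estimated count has a fraction when a read fits more than a single contig and is shared out. In 31 of 33 members (93.9%), the reads of the gene were whole within 0.005 in every library, against 79.0% of the other genes above 5 TPM and 95.0% of the genes of the exchanged rule. The exceptions were members 15 and 20. Several contigs made up 9 members, with 19 contigs together. In 8 of these 9 the same contig led in every 400 ppm library, with at least 64.5% of the gene, and in 7 it led in all 6 libraries. Member 20 held a contig that did not follow its gene. Its longest contig had 0.76, 0.46 and 0.77 TPM at 800 ppm and 0.28, 0.09 and 0.62 TPM at 400 ppm, with overlap between the groups. Its leading contig had 1.76, 2.07 and 1.21 TPM at 800 ppm and 15.9, 21.3 and 20.6 TPM at 400 ppm.

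Of the members, 17 (51.5%) had at least 1 other listed gene in their Trinity component, against 37.4% of the other genes above 5 TPM. These neighbours were not chosen by the rule. They numbered 26 in 16 components, and 24 of them had enough reads to be tested in the fit over all genes. At 800 ppm, 10 of the 24 tested neighbours (41.7%) were called lower, where 9.96% of all genes tested were. Another 4 (16.7%) were called higher, where 14.8% of all genes tested were, and 10 were not called. The number called lower depended on single libraries. It was 4 when replicate 1 at 800 ppm was left out and 6 without replicate 3, and 6 and 5 when replicates 2 and 3 at 400 ppm were left out. In the same fits, all genes called lower also fell, from 2025 to 693, 1098, 910 and 846. Reads of 24 of the 26 neighbours were whole in every library. Neighbours share sequence with a member by construction of the assembly, so they are not independent of it. Similar genes can exchange reads in the estimation. Members 15 and 20, the only members without whole reads, had no neighbour.

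The neighbours called lower had the direction of their member. Beside member 29 stood a gene with 1.73, 0.32 and 0.46 TPM at 800 ppm, against 5.64, 11.7 and 8.95 TPM at 400 ppm (log2 fold change -3.09, SE 0.63, adjusted p = 0.0153, edgeR's quasi-likelihood test). The neighbour of member 27 just missed the rule at 4.92-fold, with 11.95, 6.24 and 16.7 TPM at 800 ppm and 117, 88.5 and 82.2 TPM at 400 ppm (log2 fold change -2.67, SE 0.34, adjusted p = 0.00359). The 2 neighbours of member 9 differed in spread at 400 ppm. One had 1.04, 3.09 and 5.61 TPM at 800 ppm and 15.6, 40.3 and 67.4 TPM at 400 ppm, and was called lower (log2 fold change -3.32, SE 0.71, adjusted p = 0.0184). The other had between 0.76 and 8.44 TPM at 800 ppm and 7.07, 21.7 and 158 TPM at 400 ppm, and was not called (log2 fold change -3.80, SE 1.38, adjusted p = 0.0871).

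In 3 components a neighbour was called higher at 800 ppm, with TMM factors, while the member was low. TRINITY_DN2427_c0_g2, beside member 13, had 89.4, 74.9 and 115 TPM at 800 ppm, against 12.1, 6.54 and 11.1 TPM at 400 ppm (log2 fold change 3.64, SE 0.27, adjusted p = 0.00189), and it met the rule with the groups exchanged. Member 13 itself had 3.12, 3.91 and 2.98 TPM at 800 ppm, against 38.2, 28.3 and 33.6 TPM at 400 ppm. TRINITY_DN3302_c0_g1, beside member 3, had 133, 143 and 153 TPM at 800 ppm, against 83.7, 39.9 and 48.6 TPM at 400 ppm (log2 fold change 1.65, SE 0.23, adjusted p = 0.00492). The reads of this neighbour were not whole numbers in every library, so some may have been shared with other genes, and its level is uncertain. In the component of member 12, one neighbour had 69.3, 72.2 and 65.7 TPM at 800 ppm and 68.0, 61.4 and 59.1 TPM at 400 ppm. Its groups overlapped in TPM, and it was called higher with TMM factors (log2 fold change 0.48, SE 0.11, adjusted p = 0.0199), while the other was lower (log2 fold change -3.15, SE 0.84, adjusted p = 0.0364). On library size alone, 3 neighbours of members were called higher, against 4 with TMM factors.

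Summed over its genes, a component was lower at 800 ppm without overlap between the groups in 14 of 16 cases, and the median sum at 800 ppm was 22.6% of that at 400 ppm. The members are in these sums, so the direction is partly fixed by the rule. The same count over all components was not taken, so nothing is read from it. In the other genes above 5 TPM, the mean level at 800 ppm was a median of 75.5% of that at 400 ppm. The sum around member 3 overlapped between the groups, at 142, 159 and 161 TPM at 800 ppm and 170, 116 and 163 TPM at 400 ppm. The sum around member 13 was higher at 800 ppm, at 174, 134 and 165 TPM against 88.2, 48.3 and 74.7 TPM at 400 ppm. Within a component, the member took a median of 6.29% of the TPM at 800 ppm and 38.7% at 400 ppm. Of the 26 neighbours, 21 had a higher mean level than the member beside them at 800 ppm and 12 at 400 ppm, and 19 had a longer longest contig.

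**Figure D5:**
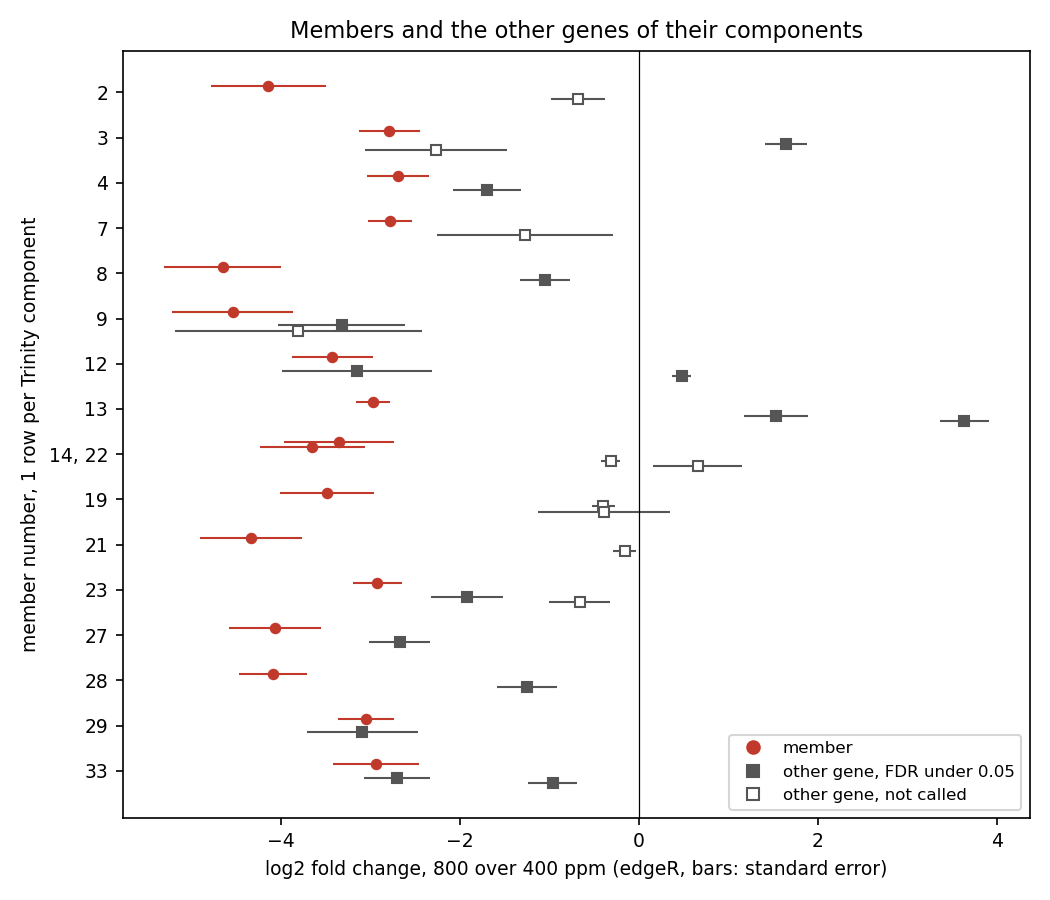
Log2 fold change, 800 over 400 ppm, of members (red circles) and tested neighbours (squares, filled at an FDR under 0.05), with 1 row per Trinity component and bars for the standard error from edgeR. Neighbours of members 3, 12 and 13 lie right of 0 among the called genes, and 10 filled squares lie left of it.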

How the data were processed

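Leaf RNA of 3 libraries at 800 ppm and 3 at 400 ppm CO2 was analysed, grouped by the sample labels. The authors assembled contigs from the merged reads with Trinity, kept those with long open reading frames (TransDecoder), annotated them by BLAST and removed redundant ones with CD-hit. The deposited tables give, for each of 45273 contigs, TPM, FPKM, a raw estimated count and the percent of its gene that the contig contributes. They were made with a Trinity script (program and version not given in the sources used here), and contigs have no genome coordinates.

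TPM and estimated counts were summed per gene, and summed counts were rounded. Library totals ranged from 13118825 to 19841835 reads. Replicate libraries of a group differed beyond sampling noise (chi-square per degree of freedom 27.0 to 38.0), so each counted as 1 sample. Genes passing filterByExpr (minimum count 10, total 15) entered edgeR 4.0.16 under R 4.3.3 (quasi-likelihood, TMM, Benjamini-Hochberg, FDR 0.05). Standard errors are those implied by the F statistic. The p-values weigh the difference between the groups against the spread among libraries within them, so they do not separate CO2 from greenhouse. The fit was tested on simulated data. DESeq2 1.42.0, other scalings, filters, single contigs, the replicate block and each library left out were alternatives. The members and comparisons were chosen with earlier results of these data known. Identifiers are printed for the most abundant member, the most abundant member at 0 TPM at 800 ppm, and the 2 neighbours called higher with the highest 800 ppm level. Other genes are described by number, and those picked out for their values were chosen after these were seen.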

Additional observations from a re-analysis of the deposited data

How the results depend on the processing

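The number of members was 33, and it was 124 at a fold of 3, 3 at a fold of 10 and 20 after TMM scaling. It ranged from 39 to 95 with a library left out, since fewer libraries then had to meet the rule. The exchanged rule gave 20 genes, or 41 after TMM scaling, an alternative chosen after seeing the data. The share of chosen genes that also met the rule in the library left out was 54.7% over the 6 choices, a figure set by the number chosen. It was 88.4% when a 2-fold difference was asked there, with the members counted among the genes that held. The calls of members under these alternatives are not read as stability, because the rule used the same values. With single contigs, 32 members were called, all except member 25.

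Of all genes tested, 2025 were called lower, 5023 on library size alone, and from 693 to 2071 with a library left out. Neighbours of members called higher were 4, and from 2 to 4 with a library left out. Neighbours called lower were 10, and from 4 to 10 with a library left out. They were 15 on library size alone, 15 with DESeq2 and 12 with edgeR's exact test. The cause was not tested.

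Whether the replicate numbers pair the libraries is not settled. After centring on each group, the libraries of replicates 1, 2 and 3 correlated at 0.20, 0.02 and -0.14 across genes. Correlations between libraries of unlike number were not taken for comparison. With the replicate block, 32 members (all except member 32), 1354 genes, 7 neighbours called lower and 3 called higher were found, in a fit with fewer residual degrees of freedom. The members' reads at 800 ppm limit the precision there, with a median of 66 over the 3 libraries. The median log2 difference of members was -3.08, and -3.54 with a pseudocount of 0.1 TPM.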
